A study of Mus musculus with 64 samples.

Results

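Resting bone marrow-derived macrophages (BMMs) of Ahr-/- mice (KO) were compared with those of Ahr+/+ mice (WT) at the 3 h time point, to see which transcripts differed without the aryl hydrocarbon receptor (AhR) when no ligand and no activating stimulus had been added. The 8 libraries, 4 per genotype, were taken by their titles from the 64 RNA-seq libraries of the series, which also hold cells given AhR ligands or killed bacteria, heat-treated S. enterica Serovar Enteritidis (hk S.E.), and a 20 h time point. All 8 cultures carried the vehicle DMSO at 0.01% for 6 h and were then left for 3 h without hk S.E. The methods give 4 mice per genotype, aged 8 to 12 weeks, and do not say that each library is 1 mouse. P-values thus measure the spread between libraries, estimated over the groups of all 64 libraries and not the 8 alone. WT mice were female C57BL/6JRj, and KO mice were C57BL/6 animals bought as a separate line and crossed back several times to the WT strain, with their sex not given in the sources used here. The deletion was present in the whole animal, so the bone marrow precursors also lacked AhR while they differentiated for 6 days in medium conditioned by L929 fibroblasts, a source of macrophage colony-stimulating factor. Cultures were used when more than 80% of the cells carried CD11b and F4/80. Differences of the KO line that are not due to AhR, and differences that arose during differentiation, cannot be told apart from an effect of AhR in the resting macrophage.

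AhR is a transcription factor that waits in the cytoplasm in a complex with the chaperone HSP90 and moves to the nucleus when it binds a ligand, such as a polycyclic aromatic hydrocarbon or an indole from food, bacteria or tryptophan breakdown. There it pairs with ARNT and binds the aryl hydrocarbon response element (AHRE), whose core is GCGTG, in front of genes of xenobiotic metabolism and of its own repressor, Ahrr. Macrophages express AhR, and culture medium itself can hold weak ligands. BMMs grown with macrophage colony-stimulating factor also divide, and many genes of mitosis carry the cell cycle genes homology region (CHR), TTTGAA, close to their start.

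Promoters are shown for genes on which the results below turn, as the 250 bases before the transcription start, 5′ to 3′ on the gene's strand, from RefSeq on GRCm38.p6. Capitals in the first pair mark GCGTG or its reverse complement CACGC. Spint1 was the gene with the lowest p of all genes lower in KO, and Ahrr, the AhR repressor, is one of the classical AhR targets measured in these cells.

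Ahrr, chr13:74292332-74292581, minus strand: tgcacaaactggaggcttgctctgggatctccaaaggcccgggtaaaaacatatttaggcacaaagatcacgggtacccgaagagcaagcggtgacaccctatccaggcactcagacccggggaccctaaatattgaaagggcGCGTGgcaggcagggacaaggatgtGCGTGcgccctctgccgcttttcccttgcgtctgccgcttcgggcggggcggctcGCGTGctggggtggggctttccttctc
Spint1, chr2:119237110-119237359, plus strand: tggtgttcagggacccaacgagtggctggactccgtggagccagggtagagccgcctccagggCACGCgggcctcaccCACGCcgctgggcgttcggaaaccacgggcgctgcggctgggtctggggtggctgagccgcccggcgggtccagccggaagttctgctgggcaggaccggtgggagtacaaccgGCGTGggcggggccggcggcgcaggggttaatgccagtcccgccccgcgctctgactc

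The next 3 are genes of mitosis that were lower in KO and were picked because they hold TTTGAA or its reverse complement TTCAAA, marked in capitals. It was in 7 of the 18 cell cycle genes lower in KO that have a promoter there (38.9%), and Ccnb1, Aurka, Plk1 and Birc5, also lower, had no match.

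Cdk1, chr10:69352913-69353162, minus strand: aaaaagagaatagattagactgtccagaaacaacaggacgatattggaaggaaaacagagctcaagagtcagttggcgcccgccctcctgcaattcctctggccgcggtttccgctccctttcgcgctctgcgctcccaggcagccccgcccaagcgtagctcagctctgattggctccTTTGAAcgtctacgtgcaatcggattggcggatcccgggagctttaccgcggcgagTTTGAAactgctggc
Cdc20, chr4:118437344-118437593, minus strand: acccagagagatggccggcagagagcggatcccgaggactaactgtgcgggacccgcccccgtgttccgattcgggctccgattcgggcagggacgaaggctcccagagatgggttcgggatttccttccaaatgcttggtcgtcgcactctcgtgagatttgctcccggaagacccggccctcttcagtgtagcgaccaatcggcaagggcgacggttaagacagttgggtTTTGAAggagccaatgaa
Mki67, chr7:135716380-135716629, minus strand: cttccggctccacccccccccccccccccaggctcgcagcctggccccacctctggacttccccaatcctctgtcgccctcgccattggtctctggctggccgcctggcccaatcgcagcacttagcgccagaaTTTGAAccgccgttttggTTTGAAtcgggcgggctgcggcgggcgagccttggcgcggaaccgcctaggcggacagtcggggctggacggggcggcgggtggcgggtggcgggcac

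The core GCGTG or its complement stood 3 times in the window of Spint1 and 3 times in that of Ahrr. It had no match in the windows of Mmp8, Mmp12 and the AhR target Nqo1. It is a common string. Of 10014 tested genes with a promoter in the table, 49.3% held it in a 250-base window, against 44.0% of 116 such genes lower in KO and 37.5% of 24 higher in KO. TTTGAA or its complement was in 29.3% of those lower in KO, 12.5% of those higher in KO and 13.2% of the tested genes. The CCAAT box, or its complement ATTGG, was in 61.2%, 54.2% and 40.6%. GCGTG or its complement was in 41.7% of 12 AhR target genes with a promoter and 55.6% of 18 cell cycle genes lower in KO. For TTTGAA or its complement the shares in these sets were 41.7% and 38.9%. A gene with several starts had several windows and counted once if any of them held the string, and these shares are descriptions without a test.

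Counts are given as CPM, the gene's share of the library's TMM-normalized total of counts times 1000000. The WT libraries held 15678717 to 30760778 counts on genes and the KO libraries 16949043 to 24575147, so a count of 0 allows up to 3 counts, or 0.0753 to 0.148 CPM, in a library. No pair of libraries within a group agreed within counting noise. Libraries did not group cleanly by genotype: in the 1000 most variable genes the component with the largest share of variance, 28.8%, set WT replicate 4 apart from the other 7 libraries. WT replicate 3 and KO replicate 2 shared low values of several transcripts, such as Cul4b (29.8, 32.4, 16.6 and 27.8 CPM in WT replicates 1 to 4 and 32.5, 13.5, 28.2 and 32.2 CPM in KO replicates 1 to 4). The replicate 4 libraries held more low-quality alignments than the others, 4.44% in WT and 5.63% in KO against 1.19% to 2.02%. Names of these 8 libraries carry 2 series of identifiers, whose meaning is not given in the sources used here. The larger holds 2 WT and 3 KO libraries, the smaller 2 WT libraries and KO replicate 1. Other settings also hold further series of identifiers. Read pairs on no gene made up 3.41% to 4.37% in WT and 3.94% to 5.50% in KO.

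All 17 macrophage markers on the list were tested and 0 were called by edgeR or DESeq2, beside 1.21% of all tested genes by edgeR. An unadjusted p below 0.05 was found for 1 of them, beside 9.99% of all tested genes. Their median log2 fold change was 0.05, with 10 positive signs and 7 negative. Summed, they reached 41422 to 45959 CPM in WT and 41273 to 45970 CPM in KO. Genotypes thus overlapped in the genes that define the cell type. Transcripts of the Y chromosome (Ddx3y, Eif2s3y, Kdm5d and Uty) had 0 counts in all 8 libraries, and Xist lay at 324, 474, 252 and 393 CPM in WT replicates 1 to 4 and 614, 240.3, 425 and 269.8 CPM in KO replicates 1 to 4.

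Ahr itself (ENSMUSG00000019256.17, chromosome 12, 35497974 to 35535038, minus strand) was not lost from the KO libraries. It had 3.90, 4.67, 3.01 and 1.09 CPM in WT replicates 1 to 4 and 9.47, 6.62, 5.32 and 5.11 CPM in KO replicates 1 to 4. Every KO library lay above every WT library, and the level was 2.05-fold that of WT (log2 fold change 1.04, SE 0.21, adjusted p = 0.00209 in the edgeR quasi-likelihood test (Benjamini-Hochberg)). The call was lost without WT replicate 4 or without KO replicate 1. On the 8 libraries alone neither edgeR (adjusted p = 0.341) nor DESeq2 (adjusted p = 0.117) called Ahr, while DESeq2 on all libraries did. Within the larger series of library identifiers the log2 fold change was 0.72 (SE 0.28) and was not called. A gene count sums reads over all exons and does not tell an intact from a disrupted transcript, so this level does not check the genotype.

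Of the other 13 genes of the AhR complex and its regulators, edgeR called 0, beside 1.21% of all tested genes. DESeq2 on all libraries called Ahrr. In edgeR, 3 of the 13 had an unadjusted p below 0.05 (Ahrr, Hsp90aa1 and Ddb1), beside 9.99% of all tested genes. Arnt, the partner of AhR on DNA, had a log2 fold change of 0.10 (SE 0.06, adjusted p = 0.710) in the edgeR quasi-likelihood test (Benjamini-Hochberg). Tiparp, which ADP-ribosylates AhR, was at -0.08 (SE 0.27, adjusted p = 1.00) by the same test. Hsp90aa1, a chaperone of the unliganded receptor, had 208, 201, 165 and 205 CPM in WT replicates 1 to 4 and 166, 125, 158 and 168 CPM in KO replicates 1 to 4. Its groups overlapped by a single library, WT replicate 3 (log2 fold change -0.34, SE 0.11, adjusted p = 0.122 by the same test).

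Several classical AhR targets had no count in resting cells. Cyp1a1 and Cyp1a2, the cytochromes of polycyclic hydrocarbon metabolism, had 0 counts in all 8 libraries, as did Aldh3a1, Gsta1 and Ereg. Of the 13 members of the list of 19 targets that were tested, 0 passed the threshold of 0.01, beside 1.21% of all tested genes. Among them 10 had a negative and 2 a positive log2 fold change and Ereg one of 0. Their median was -0.25, where the median over all tested genes was 0.0015. An unadjusted p below 0.05 was found for 3 of the 13, beside 9.99% of all tested genes. In 2 of the 13 every KO library was below every WT library, as in 4.02% of all tested genes, and neither passed. Nqo1, a quinone reductase, had 9.25, 6.70, 11.8 and 9.49 CPM in WT replicates 1 to 4 and 4.28, 4.70, 4.93 and 6.28 CPM in KO replicates 1 to 4. The difference missed the threshold (log2 fold change -0.88, SE 0.24, adjusted p = 0.0352 in the edgeR quasi-likelihood test (Benjamini-Hochberg)). Ahrr, the AhR repressor (ENSMUSG00000021575.16, chromosome 13, 74211118 to 74292331, minus strand), had 2.92, 3.79, 2.42 and 3.56 CPM in WT replicates 1 to 4 and 2.15, 1.81, 2.099 and 1.81 CPM in KO replicates 1 to 4. It was 1.62-fold lower on average, again short of the threshold (log2 fold change -0.69, SE 0.20, adjusted p = 0.0467 by the same test). DESeq2 called Ahrr on all libraries (adjusted p = 0.00448) but not on the 8 alone (adjusted p = 0.0520), and Nqo1 on the 8 alone (adjusted p = 0.00133) but not on all (adjusted p = 0.0169).

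Across the transcriptome, the edgeR quasi-likelihood test (Benjamini-Hochberg) called 176 of 14537 tested genes (1.21%) at an adjusted p below 0.01, 35 higher in KO (0.241%) and 141 lower (0.97%). The unadjusted p was below 0.05 for 1452 (9.99%). Of the 176, 171 are protein coding, and in 157 the 4 KO libraries all lay on one side of the 4 WT libraries, as they did in 5.94% of all tested genes. The number of calls changed with the libraries and the method used. It was 31 when edgeR was given the 8 libraries alone and 255 with DESeq2 on them, 29 without both replicate 4 libraries, 100 without WT replicate 3 and KO replicate 2, and as low as 56, without KO replicate 2, when a single library was left out. It was 104 with the identifier series as a covariate, and it was 17 within the larger and 3 within the smaller series. A set of 45 genes, 12 higher and 33 lower in KO, was called in each of the 8 fits that left out 1 library.

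Spint1 (ENSMUSG00000027315.13, chromosome 2, 119237362 to 119249527, plus strand), which encodes the Kunitz-type serine protease inhibitor HAI-1, fell 18.6-fold. Mmp8 (ENSMUSG00000005800.3, chromosome 9, 7558456 to 7568485, plus strand), neutrophil collagenase, fell 10.7-fold, and the macrophage elastase Mmp12, the collagenase Mmp13 and urokinase, Plau, fell less. Of 23 tested members of the list of metalloproteinases, plasminogen activators and their inhibitors, 4 were lower (Mmp8, Mmp13, Mmp12 and Plau), 0 higher and 19 not called, beside 0.97% lower and 0.241% higher of all tested genes, with 19 negative signs and a median of -0.21. Spint1 is not on that list.

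Spint1 had 5.16, 5.65, 6.66 and 4.65 CPM in WT replicates 1 to 4 and 0.222, 0.489, 0.213 and 0.271 CPM in KO replicates 1 to 4. All WT libraries were above 4 CPM and all KO libraries below 1 CPM (log2 fold change -4.21, SE 0.26, adjusted p = 7.72e-18 in the edgeR quasi-likelihood test (Benjamini-Hochberg)), and without any single library the log2 fold change lay between -4.55 and -4.07. Mmp8 had 30.6, 31.4, 22.5 and 21.5 CPM in WT replicates 1 to 4 and 3.48, 2.18, 2.56 and 1.58 CPM in KO replicates 1 to 4. The lowest WT library was several times the highest KO library (log2 fold change -3.42, SE 0.22, adjusted p = 4.21e-17 by the same test), and the range without single libraries was -3.64 to -3.27. Mmp8 is also on the list of neutrophil markers. That list of 14 summed to 38.5 to 76.5 CPM in WT and 25.0 to 29.2 CPM in KO, but without Mmp8 to 16.9 to 45.9 and 21.5 to 27.7 CPM, which overlap. Other members, among them S100a8 (-0.42) and S100a9 (-0.56), were not called.

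Mmp12 had 445, 449, 412 and 421 CPM in WT replicates 1 to 4 and 227, 176, 177 and 167 CPM in KO replicates 1 to 4. Its genotypes were clearly apart at a 2.31-fold difference (log2 fold change -1.21, SE 0.17, adjusted p = 3.44e-06 in the edgeR quasi-likelihood test (Benjamini-Hochberg)). Mmp13 had 12.3, 15.4, 12.4 and 12.9 CPM in WT replicates 1 to 4 and 6.21, 4.21, 5.20 and 5.06 CPM in KO replicates 1 to 4. It fell 2.56-fold (log2 fold change -1.36, SE 0.22, adjusted p = 9.65e-05 by the same test). Plau had 172, 239.9, 235 and 245 CPM in WT replicates 1 to 4 and 151, 117, 142 and 132 CPM in KO replicates 1 to 4. WT replicate 1 was the lowest of its group and still above every KO library (log2 fold change -0.72, SE 0.14, adjusted p = 0.000910 by the same test), and the call was lost without KO replicate 2.

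**Figure D1:**
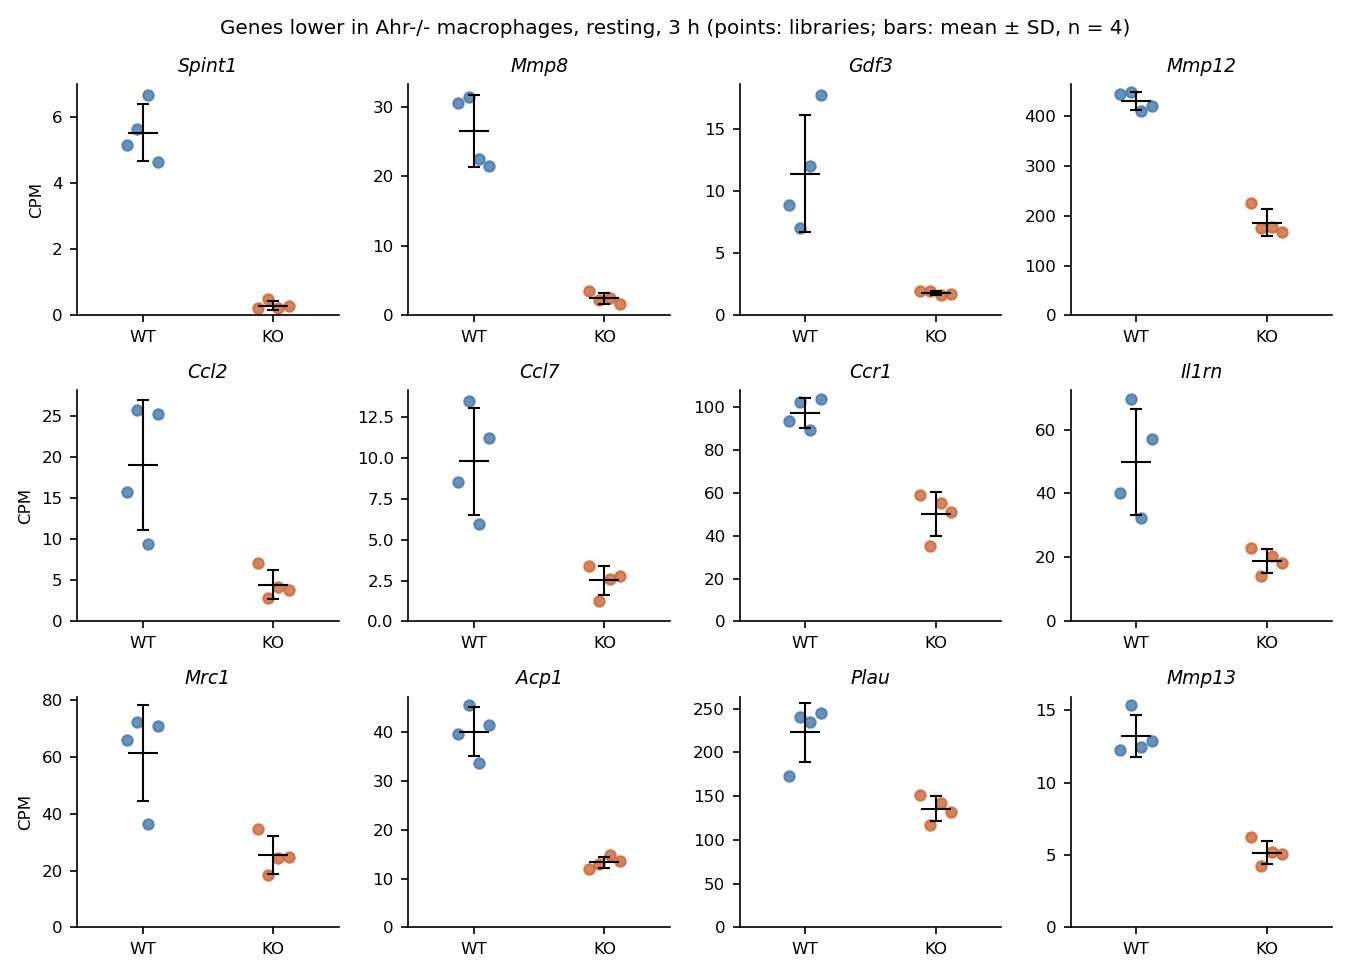
CPM of 12 genes lower in KO in the resting libraries at 3 h, 1 panel per gene with its own axis from 0. Each point is 1 library, and the bars are the mean and SD of 4 libraries; in every panel the 4 KO points lie below the 4 WT points, with Spint1 at 4.65 to 6.66 CPM in WT and 0.213 to 0.489 CPM in KO.

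Monocyte-attracting chemokines and one of their receptors fell as well. Of 20 tested chemokines, 3 were lower in KO (Ccl2, Ccl7 and Ccl4), 1 was higher (Ccl5) and 16 were not called, beside 0.97% lower and 0.241% higher of all tested genes, with a median of -0.50. Among 9 tested chemokine receptors, Ccr7 and Ccr1 were lower, Cxcr4 was higher and 6 were not called, beside the same shares, with a median of 0.33.

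Ccl2, the ligand of CCR2 that draws monocytes, had 15.7, 25.7, 9.42 and 25.2 CPM in WT replicates 1 to 4 and 7.06, 2.82, 4.20 and 3.89 CPM in KO replicates 1 to 4. It fell 4.22-fold without overlap (log2 fold change -2.08, SE 0.30, adjusted p = 7.83e-06 in the edgeR quasi-likelihood test (Benjamini-Hochberg)). Ccl7, another CCR2 ligand next to it on chromosome 11, had 8.52, 13.5, 5.97 and 11.2 CPM in WT replicates 1 to 4 and 3.42, 1.28, 2.62 and 2.76 CPM in KO replicates 1 to 4. WT replicate 3 was the lowest WT library for both genes, and it still lay above KO replicate 1, the highest KO library (log2 fold change -1.97, SE 0.31, adjusted p = 6.19e-05 for Ccl7 by the same test). Ccl4, an inflammatory chemokine, had 17.7, 20.5, 10.6 and 25.1 CPM in WT replicates 1 to 4 and 9.91, 8.65, 9.79 and 9.99 CPM in KO replicates 1 to 4. The KO libraries were close together just under the lowest WT library (log2 fold change -0.95, SE 0.17, adjusted p = 0.000285 by the same test).

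Ccl5 went the other way, and unevenly, at 8.91, 9.06, 10.0 and 13.5 CPM in WT replicates 1 to 4 and 8.39, 20.0, 30.0 and 31.2 CPM in KO replicates 1 to 4. KO replicate 1 was below all WT libraries while the other 3 KO libraries were above them, so that the groups overlapped (log2 fold change 1.11, SE 0.22, adjusted p = 0.00160 in the edgeR quasi-likelihood test (Benjamini-Hochberg)). Without KO replicate 1 the log2 fold change was 1.39, and within the series of library identifiers that holds only this KO library and 2 WT libraries it was -0.41 (SE 0.32, adjusted p = 0.953). The call was also lost without WT replicate 1, WT replicate 2, KO replicate 3 or KO replicate 4.

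Ccr1, a receptor of inflammatory chemokines, had 93.5, 102, 89.2 and 104 CPM in WT replicates 1 to 4 and 58.9, 35.3, 55.5 and 51.1 CPM in KO replicates 1 to 4. It fell 1.94-fold (log2 fold change -0.95, SE 0.18, adjusted p = 0.000952 in the edgeR quasi-likelihood test (Benjamini-Hochberg)), a call that needed KO replicate 2. Ccr7, which guides dendritic cells and lymphocytes to lymph nodes, was sparse, with 71 counts over the WT and 7 over the KO libraries, a pooled ratio of 0.0886 (exact 95% interval 0.0344 to 0.192, for counting error only; log2 fold change -3.44, SE 0.69, adjusted p = 0.00156 by the same test). Its call was lost without KO replicate 1. The 12 dendritic cell markers without Ccr7 summed over the other 11 to 48.7 to 62.7 CPM in WT and 32.5 to 48.6 CPM in KO, with the groups just apart; their part in the Ccr7 result was not tested. Cxcr4, the receptor of CXCL12, had 135, 129.7, 137 and 127 CPM in WT replicates 1 to 4 and 179, 236, 188 and 183 CPM in KO replicates 1 to 4. It was 1.49-fold higher without overlap (log2 fold change 0.57, SE 0.13, adjusted p = 0.00660 by the same test), but the call survived the loss of only KO replicate 1.

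Il1rn, Il1r2 and Gdf3 encode secreted or decoy proteins of cytokine signalling and were lower in KO. Il1rn, the interleukin 1 receptor antagonist, was the single called member of 26 tested cytokine genes, beside 0.97% lower and 0.241% higher of all tested genes. Il1rn had 40.3, 69.4, 32.5 and 57.2 CPM in WT replicates 1 to 4 and 23.028, 14.1, 20.5 and 18.3 CPM in KO replicates 1 to 4. It fell 2.63-fold (log2 fold change -1.39, SE 0.26, adjusted p = 0.000847 in the edgeR quasi-likelihood test (Benjamini-Hochberg)), and the call was lost without WT replicate 2 or KO replicate 2. Il1r2, the decoy receptor, had 41 counts in WT and 7 in KO in all (pooled ratio 0.153, exact 95% interval 0.0581 to 0.346; log2 fold change -2.62, SE 0.62, adjusted p = 0.00859 by the same test), and no fit that left out a library called it. Gdf3 (ENSMUSG00000030117.5, chromosome 6, 122605403 to 122610087, minus strand), a growth factor of the TGF-beta family, had 8.86, 7.03, 12.03 and 17.8 CPM in WT replicates 1 to 4 and 1.93, 1.99, 1.64 and 1.72 CPM in KO replicates 1 to 4. The 4 KO libraries were nearly equal and the WT libraries spread widely above them (log2 fold change -2.64, SE 0.31, adjusted p = 5.47e-08 by the same test). Il1b, Tnf and Il6 were not called, at 0.39, -0.11 and 0.90.

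Of 25 tested Fc, scavenger and lectin receptors, 2 were lower, beside 0.97% of all tested genes, and 23 were not called, and the median was -0.04. Mrc1, the mannose receptor CD206, had 66.0, 72.4, 36.4 and 70.8 CPM in WT replicates 1 to 4 and 34.7, 18.3, 24.5 and 24.6 CPM in KO replicates 1 to 4. WT replicate 3 was far below the other WT libraries and just above the highest KO library (log2 fold change -1.27, SE 0.20, adjusted p = 3.86e-05 in the edgeR quasi-likelihood test (Benjamini-Hochberg)). Msr1, the class A scavenger receptor, had 319.7, 351, 286 and 359 CPM in WT replicates 1 to 4 and 266, 179, 233 and 237 CPM in KO replicates 1 to 4. It fell 1.44-fold (log2 fold change -0.52, SE 0.11, adjusted p = 0.00401 by the same test), and 3 of the 8 fits without a library called it. Pdpn, podoplanin, a ligand of the platelet receptor CLEC-2, had 47.6, 55.1, 53.1 and 43.9 CPM in WT replicates 1 to 4 and 25.9, 23.9, 30.9 and 26.3 CPM in KO replicates 1 to 4. Its groups were well apart (log2 fold change -0.90, SE 0.11, adjusted p = 4.17e-07 by the same test).

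Smaller or sparser decreases completed the named set. Vcan, a matrix proteoglycan made by monocytes, fell at -1.19 (SE 0.24, adjusted p = 0.00171) in the edgeR quasi-likelihood test (Benjamini-Hochberg), while the other 9 monocyte markers summed to 590.3 to 715 CPM in WT and 575 to 687 CPM in KO. Slc7a2, a transporter of arginine, was the only called gene of 16 on arginine, tryptophan and itaconate metabolism at -0.59 (SE 0.14, adjusted p = 0.00900), with 1 KO library among the WT values. Pgam1, a glycolytic mutase, was the only one of 26 glycolysis and HIF genes at -0.50 (SE 0.11, adjusted p = 0.00690). Of these 26, 20 had a negative sign and the median was -0.16. The counts of 1 in 16 and 1 in 26 stand beside 0.97% lower and 0.241% higher of all tested genes. Apol7c, an apolipoprotein L gene, had 100 counts in WT and 3 in KO, a pooled ratio of 0.0270 (exact 95% interval 0.00547 to 0.0811, counting error only), and was called in 4 of 8 fits without a library. The unnamed gene models 4933430I17Rik (-1.61) and the pseudogene AC148020.1 (-1.94), whose reads may belong to a parent gene, were called in 2 of 8 such fits each.

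Of the 37 gene lists used here, the cell cycle list held the most genes lower in KO. Its 37 genes were all tested, and 21 were lower in KO, 0 higher and 16 not called, where 0.97% of all tested genes were lower. The median log2 fold change was -0.81, 35 of the 37 had a negative sign, and in 28 every KO library was below every WT library, as in 4.02% of all tested genes. Summed over the list, levels were 2351, 2386, 2104 and 2525 CPM in WT replicates 1 to 4 and 1669, 1455, 1686 and 1807 CPM in KO replicates 1 to 4. No KO library reached the lowest WT library. In bulk RNA, fewer cells in cycle and less of these RNAs per cycling cell cannot be told apart.

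Genes of mitosis had the most negative values of the list. Plk1, the polo-like kinase of mitotic entry, had 25.1, 25.4, 19.0 and 27.5 CPM in WT replicates 1 to 4 and 9.47, 11.8, 9.73 and 11.5 CPM in KO replicates 1 to 4. It fell 2.29-fold without overlap (log2 fold change -1.19, SE 0.22, adjusted p = 0.000743 in the edgeR quasi-likelihood test (Benjamini-Hochberg)). Ccnb1, cyclin B1, had 29.9, 34.9, 17.3 and 29.2 CPM in WT replicates 1 to 4 and 17.1, 10.4, 12.2 and 12.7 CPM in KO replicates 1 to 4. WT replicate 3 and KO replicate 1 were nearly equal (log2 fold change -1.09, SE 0.20, adjusted p = 0.000571 by the same test). Ccnb2, cyclin B2, had 24.4, 23.6, 14.4 and 25.4 CPM in WT replicates 1 to 4 and 9.82, 9.40, 10.1 and 11.8 CPM in KO replicates 1 to 4. Here too WT replicate 3 was the low WT library (log2 fold change -1.10, SE 0.23, adjusted p = 0.00202 by the same test), and this gene and Cenpf, a kinetochore protein (log2 fold change -1.06, SE 0.22, adjusted p = 0.00217), were called in 3 of 8 fits without a library. The mitotic kinesin Kif20a (-1.04), the proliferation antigen Mki67 (-1.02), the anaphase activator Cdc20 (-1.01), survivin, Birc5, topoisomerase Top2a (-0.91), the Aurora kinases Aurka (-0.90) and Aurkb (-0.89) and the kinase Cdk1 (-0.85) were all called lower.

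Genes of DNA replication had smaller fold changes. Mcm2 and Mcm7, subunits of the replicative helicase, were called at -0.54 and -0.57, and Rrm1, ribonucleotide reductase, at -0.63. Mcm5 (-0.55), Mcm3 (-0.51), Tk1 (-0.68) and Pcna (-0.28) had no overlap between the genotypes but did not pass. The G1 regulators Ccnd2 (0.17), Ccnd3 (-0.17), E2f1 (-0.17) and the inhibitor Cdkn1a (0.17) were not called and overlapped. Outside the list, Pif1, a DNA helicase, had 6.04, 5.04, 2.81 and 5.07 CPM in WT replicates 1 to 4 and 1.81, 1.58, 1.58 and 1.94 CPM in KO replicates 1 to 4. It fell 2.75-fold (log2 fold change -1.46, SE 0.28, adjusted p = 0.000931 in the edgeR quasi-likelihood test (Benjamini-Hochberg)). The Reactome term Cell Cycle, looked up after the calls were seen, had 444 of the 14537 tested genes. Of these 444, 39 were lower and 0 higher, beside 0.97% lower and 0.241% higher of all tested genes. The 39 were 27.7% of the 141 genes lower in KO.

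How many cell cycle genes were called depended on single libraries, and the median of the list moved less. Calls numbered 8 to 22 without 1 library, 5 without both replicate 4 libraries, 12 without WT replicate 3 and KO replicate 2, 5 with edgeR on the 8 libraries alone and 26 with DESeq2 on them. The median lay between -0.87 and -0.65 in the fits without 1 library and between -0.81 and -0.69 in the other alternatives. Within the larger series of library identifiers 0 members were called.

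**Figure D2:**
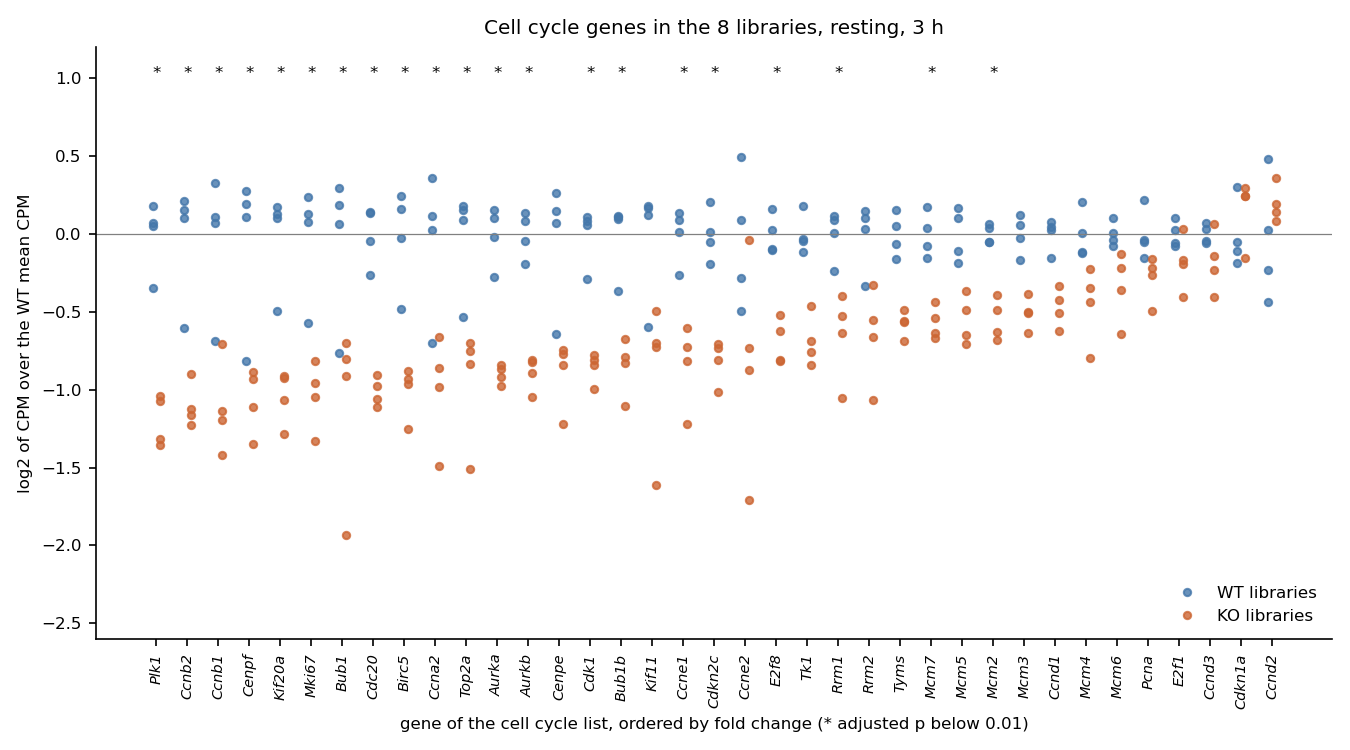
The 37 genes of the cell cycle list, ordered from the most negative to the most positive log2 fold change, with each library's log2 CPM relative to the WT mean on the vertical axis (blue, 4 WT libraries; orange, 4 KO libraries; star, adjusted p below 0.01). Most KO points lie below the WT points, with 21 stars, and the lowest WT point of the mitosis genes on the left comes near the KO points.

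The 35 genes higher in KO included genes of endosomes, coagulation and the cell surface. Rab4a (ENSMUSG00000019478.16, chromosome 8, 123805985 to 123835287, plus strand), a small GTPase of endosome recycling, had 1.36, 2.06, 1.92 and 3.27 CPM in WT replicates 1 to 4 and 5.04, 10.3, 6.78 and 6.91 CPM in KO replicates 1 to 4. It was 3.36-fold higher without overlap (log2 fold change 1.75, SE 0.24, adjusted p = 2.42e-06 in the edgeR quasi-likelihood test (Benjamini-Hochberg)). F5, coagulation factor V, had 3.99, 2.66, 4.73 and 2.04 CPM in WT replicates 1 to 4 and 9.88, 13.9, 8.97 and 11.2 CPM in KO replicates 1 to 4. All KO libraries were well above the highest WT library (log2 fold change 1.72, SE 0.29, adjusted p = 0.000185 by the same test). Tspan33, a tetraspanin, had 1.56, 1.78, 1.28 and 1.61 CPM in WT replicates 1 to 4 and 6.49, 6.66, 2.95 and 3.80 CPM in KO replicates 1 to 4. The WT libraries were close together and KO replicates 3 and 4 were nearer to them than replicates 1 and 2 (log2 fold change 1.66, SE 0.31, adjusted p = 0.000740 by the same test).

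Enc1 (ENSMUSG00000041773.8, chromosome 13, 97241105 to 97253034, plus strand), a kelch-repeat protein that binds actin, had 61.2, 65.4, 62.9 and 55.5 CPM in WT replicates 1 to 4 and 122, 122, 104 and 107 CPM in KO replicates 1 to 4. It was 1.86-fold higher, with little spread in either group (log2 fold change 0.89, SE 0.12, adjusted p = 2.95e-06 in the edgeR quasi-likelihood test (Benjamini-Hochberg)). Wdfy1, an endosomal FYVE protein on the list of genes known to differ between mouse sub-strains, had 10.9, 12.3, 9.27 and 11.8 CPM in WT replicates 1 to 4 and 32.6, 21.02, 47.5 and 30.0 CPM in KO replicates 1 to 4. KO replicate 3 was the highest library, and the call was lost without it (log2 fold change 1.57, SE 0.31, adjusted p = 0.00142 by the same test). Of the other 4 tested genes of that list, 0 were called, and Nnt, truncated in some C57BL/6J stocks, was low in both genotypes at 0.439 ± 0.0697 CPM in WT and 0.457 ± 0.164 CPM in KO (SD, n = 4 each).

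Traf1, Nfkbiz, Gpr132 and Ptger4, genes of inflammatory signalling, rose by a smaller fold. Traf1, an adaptor of TNF receptors, had 16.8, 18.8, 23.7 and 19.2 CPM in WT replicates 1 to 4 and 22.997, 34.6, 28.7 and 33.1 CPM in KO replicates 1 to 4. KO replicate 1 overlapped the highest WT library (log2 fold change 0.61, SE 0.10, adjusted p = 9.65e-05 in the edgeR quasi-likelihood test (Benjamini-Hochberg)). Nfkbiz, a nuclear partner of NF-kB, was the single called gene of 31 on Toll-like receptor and NF-kB signalling, beside 0.97% lower and 0.241% higher of all tested genes. Nfkbiz had 9.15, 14.9, 14.1 and 13.6 CPM in WT replicates 1 to 4 and 18.7, 19.5, 19.5 and 19.0 CPM in KO replicates 1 to 4. The KO libraries were nearly equal and above all WT libraries (log2 fold change 0.56, SE 0.10, adjusted p = 0.000264 by the same test), and the median of the 31 was 0.10. Gpr132, a receptor that senses protons and lipids, had 18.5, 21.1, 21.6 and 18.2 CPM in WT replicates 1 to 4 and 29.3, 35.5, 28.7 and 27.1 CPM in KO replicates 1 to 4. It was 1.52-fold higher (log2 fold change 0.60, SE 0.09, adjusted p = 4.72e-05 by the same test). Ptger4, the EP4 receptor of prostaglandin E2, was higher at 0.53 (SE 0.12, adjusted p = 0.00525) by the same test and was called in 2 of 8 fits without a library.

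The class I genes H2-Q4, H2-Q6 and H2-Q7 were called higher, 3 of 17 tested genes of class I presentation beside 0.241% of all tested genes, and 16 of the 17 had a positive sign. These are near-identical paralogs whose reads the counting may split or drop, so single values are uncertain. H2-Q4 had 48.9, 47.7, 58.6 and 42.4 CPM in WT replicates 1 to 4 and 49.4, 87.5, 84.2 and 89.6 CPM in KO replicates 1 to 4. KO replicate 1 lay among the WT libraries and the other 3 KO libraries above them (log2 fold change 0.65, SE 0.12, adjusted p = 0.000554 in the edgeR quasi-likelihood test (Benjamini-Hochberg)), the same library that was low for Ccl5. H2-Q7 (log2 fold change 1.01, SE 0.22, adjusted p = 0.00426) and H2-Q6 (log2 fold change 1.02, SE 0.24, adjusted p = 0.00707) had the same order and were called in 2 of 8 fits without a library, while H2-Q4 was called in all 8. On the 8 libraries alone H2-Q4 was not called by edgeR (adjusted p = 0.153) or DESeq2 (adjusted p = 0.0247). Leaving out both replicate 4 libraries also ended its call. Without KO replicate 1 the 3 log2 fold changes were 0.82, 1.23 and 1.21 for H2-Q4, H2-Q7 and H2-Q6.

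Other genes among the 12 largest increases had low counts. Clec2i, a C-type lectin-like ligand, had 0.925, 1.15, 0.542 and 0.664 CPM in WT replicates 1 to 4 and 3.74, 2.11, 2.34 and 2.98 CPM in KO replicates 1 to 4, and the aquaporin Aqp9 had 1.41, 1.15, 1.23 and 0.759 CPM in WT replicates 1 to 4 and 2.186, 2.26, 2.28 and 3.25 CPM in KO replicates 1 to 4. Both were apart in all libraries and called in all 8 fits without a library (1.72 and 1.11 on the log2 scale). Efcab7 (1.73), Efna2 (1.28), C130026I21Rik (1.29) and the transcribed pseudogenes Gm6472 (1.14) and AC166110.3 (1.02) were also higher; among these only Gm6472 was called in all 8 fits, and a pseudogene's reads may belong to its parent gene.

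**Figure D3:**
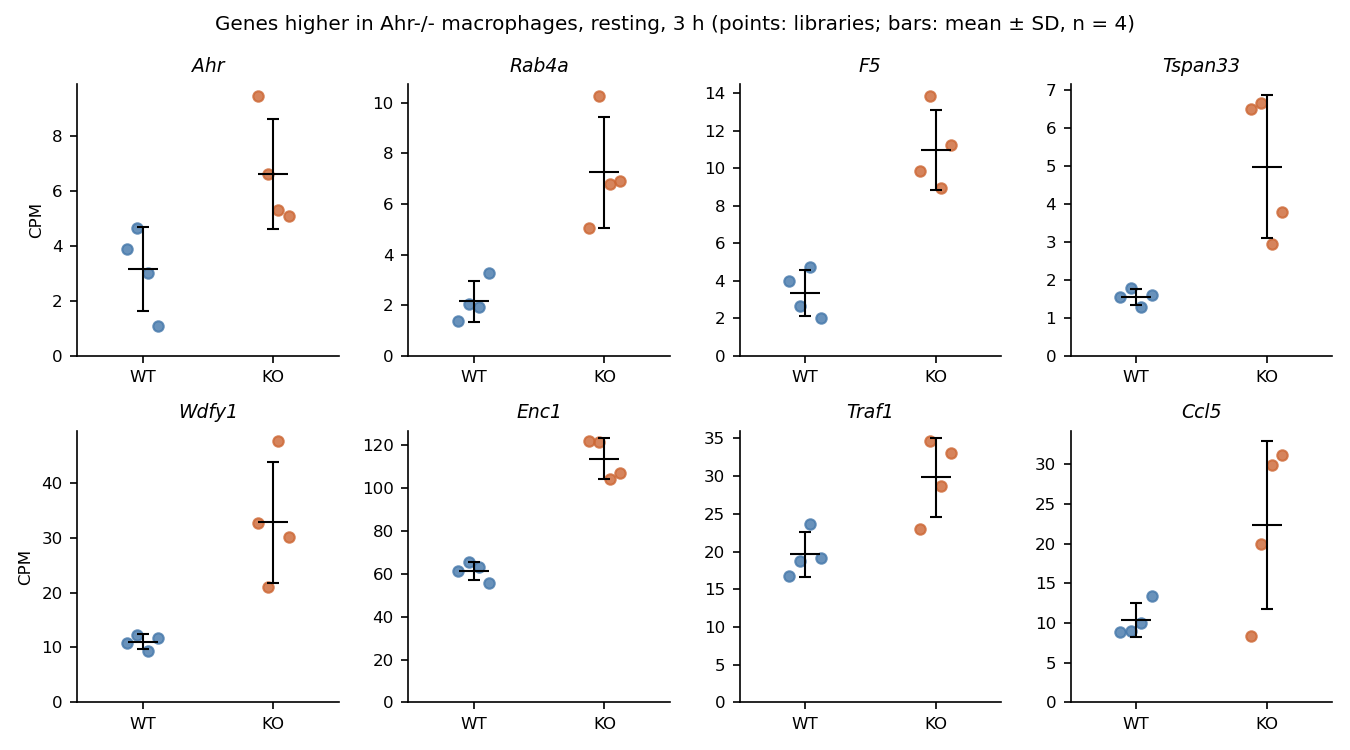
CPM of Ahr and 7 further genes higher in KO in the resting libraries at 3 h, 1 panel per gene with its own axis from 0. Points are libraries and bars the mean and SD of 4 libraries; Ahr, Rab4a, F5, Tspan33, Wdfy1 and Enc1 show no overlap, and for Ccl5 and Traf1 the lowest KO point, replicate 1, lies at the level of the WT points.

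Several groups with a role in macrophage activation held no called gene. Only 1.21% of all tested genes were called, so 0 calls in lists of such size, here and below, do not show them unchanged. Of 52 tested interferon-stimulated genes, 0 were called, 50 had a positive sign and the median was 0.21. Their sum was 2221, 2946, 1933 and 2474 CPM in WT replicates 1 to 4 and 1743, 1923, 3804 and 3746 CPM in KO replicates 1 to 4. KO replicates 3 and 4 were above all WT libraries, and KO replicates 1 and 2 were below all of them. The largest member, Ifi213, was at 0.98 (SE 0.60, adjusted p = 0.676) in the edgeR quasi-likelihood test (Benjamini-Hochberg). The unadjusted p was below 0.05 for 1 of the 52, beside 9.99% of all tested genes, and DESeq2 called 0. The median turned to -0.84 within the smaller series of library identifiers, where KO replicate 1 is the only KO library.

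MHC class II genes (median 0.09 over 11), NADPH oxidase subunits (-0.01 over 8), costimulatory genes (0.08 over 15), complement (-0.03 over 15), cytosolic ribosomal proteins (0.0026 over 39) and sterol synthesis and efflux genes (0.09 over 29) also had 0 calls. Chaperones and the unfolded protein response were slightly shifted down, with a median of -0.13 and 19 of 28 negative signs, and circadian clock genes slightly up, with a median of 0.27 and 15 of 17 positive signs, again with 0 calls by edgeR. The unadjusted p was below 0.05 for 13 of 28 chaperone genes and 3 of 17 clock genes, beside 9.99% of all tested genes. Other lists without a call by edgeR were NRF2 antioxidant genes (-0.08 over 19), iron handling (-0.02 over 14), integrins and adhesion (0.04 over 21), immediate early genes and AP-1 (0.03 over 24) and mitochondrially encoded genes (-0.03 over 12). DESeq2 on all libraries called 2 complement genes and 1 of iron handling higher, and on the 8 libraries alone 1 NRF2, 1 immediate early and 2 chaperone genes lower and 1 ribosomal gene higher.

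Markers of other cells that a culture could hold were low beside those of macrophages. Those of mast cells, basophils and eosinophils summed to at most 0.493 CPM, those of red cells and platelets to at most 0.522 CPM and those of stromal and endothelial cells to at most 9.11 CPM in a library. T, NK and B cell markers reached 14.5 to 19.0 CPM in WT and 15.5 to 31.1 CPM in KO, with Cd3d, Trbc1 and Trbc2 at 0. These 4 lists held 0 called genes by edgeR or DESeq2, beside 1.21% of all tested genes by edgeR. Of their 14 tested genes, 3 had an unadjusted p below 0.05, beside 9.99% of all tested genes.

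Genes around Ahr on chromosome 12 were looked at on their own, since DNA linked to a knocked-out allele can stay with it through back crosses. Within 10 Mb, 54 genes were tested and 3 were called (5.56%), Ahr itself, Hdac9 and Acp1. On all of chromosome 12, these 3 included, 4 of 525 tested genes were called (0.762%), beside 1.21% of all tested genes. Acp1 (ENSMUSG00000044573.16, chromosome 12, 30893326 to 30911589, minus strand), a low molecular weight phosphotyrosine phosphatase whose gene starts 4.60 Mb away, had 39.6, 45.6, 33.6 and 41.5 CPM in WT replicates 1 to 4 and 12.04, 12.9, 14.8 and 13.6 CPM in KO replicates 1 to 4. It was 3.01-fold lower, with small spread in both groups and one of the lowest p of the whole comparison (log2 fold change -1.59, SE 0.11, adjusted p = 6.74e-17 in the edgeR quasi-likelihood test (Benjamini-Hochberg)). Hdac9, a class II histone deacetylase 1.45 Mb away, had 16.2, 21.2, 16.4 and 17.2 CPM in WT replicates 1 to 4 and 13.7, 6.58, 7.45 and 9.35 CPM in KO replicates 1 to 4. KO replicate 1 was nearest to the WT libraries (log2 fold change -0.94, SE 0.18, adjusted p = 0.00132 by the same test), and the call was lost without WT replicate 2, KO replicate 2 or KO replicate 3. The source of the stem cells used to make the allele is not given in the sources used here, so an effect of linked DNA and an effect of AhR cannot be told apart for these genes.

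**Figure D4:**
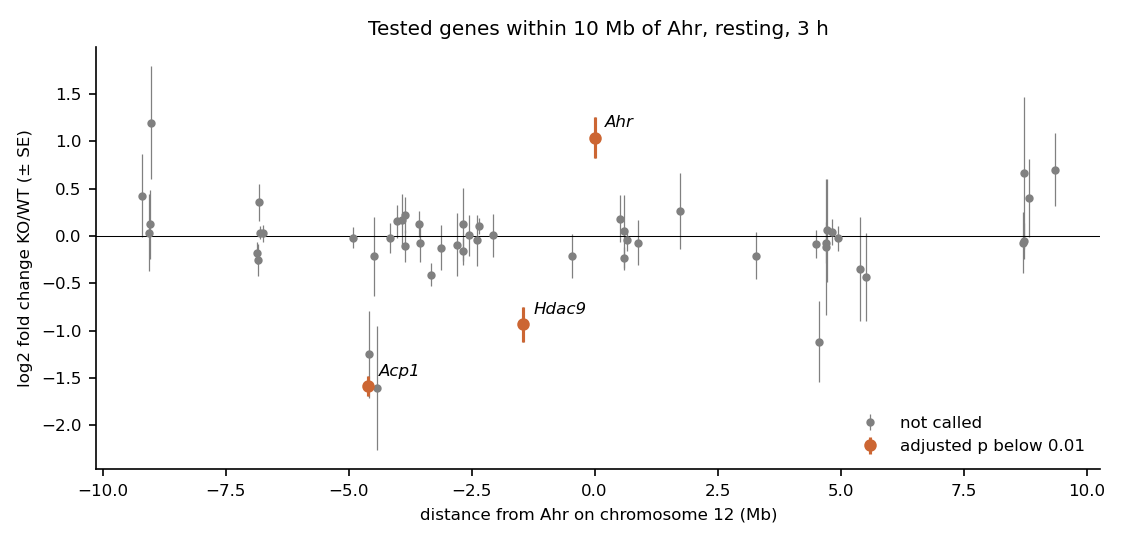
Log2 fold change of KO against WT with its SE for the 54 tested genes within 10 Mb of Ahr, by distance from Ahr on chromosome 12 in Mb. Grey points did not pass; the orange points are Acp1 at -4.60 Mb and -1.59, Hdac9 at -1.45 Mb and -0.94, and Ahr at 0 and 1.04.

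The same genotype contrast was fitted at rest at 20 h and with hk S.E. after DMSO at 3 h and 20 h, in other libraries of these genotypes. These are not independent repeats: same-numbered libraries of a genotype deviated together in part from their group means between rest at 3 h and rest at 20 h (r of -0.21, 0.47, 0.23 and 0.23 for KO replicates 1 to 4 and 0.15, 0.19, 0.09 and 0.19 for WT), and between rest and hk S.E. at 3 h (r of -0.17, 0.41, 0.18 and 0.16 for KO and 0.07, 0.12, 0.13 and 0.03 for WT). The fit treats all libraries as independent. At rest at 20 h, where 0.702% of genes were called, 34 of the 141 genes lower in KO were called lower again (24.1% of them and 48.6% of the 70 lower at 20 h, which are 0.482% of all genes), and 16 of the 35 higher were called higher again (45.7%, and 50.0% of the 32 higher at 20 h, which are 0.22% of all genes). All 141 had a negative sign there and 34 of 35 a positive sign. The difference between the contrasts at 20 h and at 3 h was called for 0 genes by edgeR's quasi-likelihood test, with 444 genes (3.05%) at an unadjusted p below 0.05 and 0 by DESeq2. Sizes were smaller at 20 h: the 141 had a median of -0.51 against -0.89 at 3 h, with the genes chosen by their values at 3 h. At 20 h, WT replicate 4 stood out in depth with 233047331 counts. All KO libraries and WT replicate 1 at rest at 20 h carried the smaller series of identifiers, and the other WT libraries did not. Genotype and series were thus largely tied there.

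With hk S.E. at 3 h, 2.83% of genes were called. Of the 141, 97 were lower again (68.8% of them, 41.5% of the 234 lower there, which are 1.61% of all genes) with a median of -0.91. Of the 35, 17 were higher again (48.6%, and 9.60% of the 177 higher there, which are 1.22% of all genes). WT replicates 1 and 2 carried a further series of identifiers there, and all other libraries of the setting the larger series. With hk S.E. at 20 h, where 12.5% were called, 21 of 141 were lower again, beside 7.39% of all genes, and 77 had a negative sign, with a median of -0.09, and 10 of 35 were higher again, beside 5.06% of all genes, with 18 positive and 17 negative signs and a median of 0.18 against 0.89 at rest at 3 h. All WT libraries of that setting carried the larger series of identifiers and all KO libraries the smaller. Genotype and identifier series therefore cannot be told apart with hk S.E. at 20 h. The cell cycle list had a median of -0.45 at rest at 20 h with 0 members called lower, of -0.82 with hk S.E. at 3 h with 24 called lower, and of -0.03 with hk S.E. at 20 h with 3 called lower and 5 higher. The differences between contrasts were tested gene by gene for rest at 20 h and for hk S.E. at 3 h, and 0 cell cycle genes were called in either; for hk S.E. at 20 h the difference was not tested.

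Spint1 was low in KO in every setting, with log2 fold changes of -3.97 at rest at 20 h (adjusted p = 2.51e-17), -5.12 with hk S.E. at 3 h (adjusted p = 3.97e-10) and -4.32 with hk S.E. at 20 h (adjusted p = 4.41e-16) by the edgeR quasi-likelihood test (Benjamini-Hochberg). Mmp8 had -2.26 at rest at 20 h (adjusted p = 1.7e-10), -3.15 with hk S.E. at 3 h (adjusted p = 2.18e-15) and -3.32 with hk S.E. at 20 h (adjusted p = 3.77e-15) by the same test. Acp1 had -1.37 at rest at 20 h (adjusted p = 2.85e-14), -1.65 with hk S.E. at 3 h (adjusted p = 9.32e-17) and -1.34 with hk S.E. at 20 h (adjusted p = 2.59e-14) by the same test. Mmp12 was called in the first 2 settings and not in the last, at -1.25 at rest at 20 h (adjusted p = 2.45e-06), -0.95 with hk S.E. at 3 h (adjusted p = 0.000142) and -0.13 with hk S.E. at 20 h (adjusted p = 0.654) by the same test; whether the last differs from the resting one was not tested. Ccl4 was at -0.76 at rest at 20 h (adjusted p = 0.00470), -0.05 with hk S.E. at 3 h (adjusted p = 0.913) and -0.07 with hk S.E. at 20 h (adjusted p = 0.806) by the same test.

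The KO against WT contrast differed between hk S.E. and rest at 3 h for 2 genes (0.0138%), 1 lower and 1 higher (0.00688% each), beside 867 (5.96%) at an unadjusted p below 0.05. Enc1, higher in KO at rest, had 31.9 ± 5.41 CPM in WT and 29.5 ± 3.70 CPM in KO (SD, n = 4 each) with hk S.E., a log2 fold change of -0.11, and the difference between the contrasts was -1.01 (SE 0.17, adjusted p = 0.00323 by the edgeR quasi-likelihood test (Benjamini-Hochberg)). Rcsd1, a protein that binds actin capping protein, lay at rest at 33.1 ± 1.41 CPM in WT and 31.5 ± 1.84 CPM in KO (SD, n = 4 each), and reached 88.2 ± 7.16 CPM in WT and 149 ± 14.1 CPM in KO with hk S.E. The difference between the contrasts was 0.83 (SE 0.13, adjusted p = 5.70e-04 by the same test). With DESeq2 this test called 17 genes, and edgeR on these 16 libraries alone called 0, with or without a block of same-numbered libraries within each genotype.

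**Figure D5:**
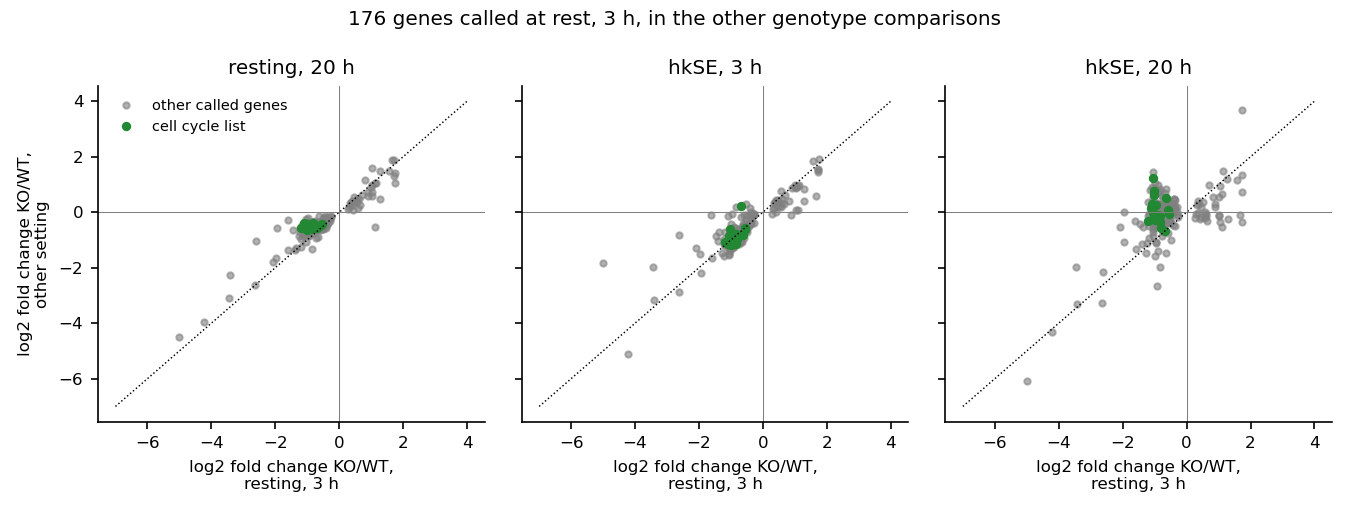
Log2 fold change of KO against WT for the 176 genes called at rest at 3 h (horizontal) against their log2 fold change in 3 other settings (vertical), with the dotted line of equal values and the cell cycle list in green. At rest at 20 h, 127 of the 141 lower genes and 28 of the 35 higher genes were smaller in size than at 3 h. With hk S.E. at 3 h this held for 66 of the 141 lower genes and 31 of the 35 higher genes. With hk S.E. at 20 h the green points scatter around 0 on the vertical axis.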

How the data were processed

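Poly(A) RNA of the 8 BMM cultures was sequenced by the authors as stranded paired-end libraries. Per the labels and the study's methods, reads were demultiplexed with bcl2fastq 2.19.0.316, trimmed, aligned to mm10 with HISAT2 2.1.0 and counted per gene of GENCODE M22 with HTSeq 0.9.1, keeping read pairs on the gene's strand and within its exons. The deposited files hold these raw counts for 55487 genes. Their last 5 entries name no gene and were left out, and the deposited table of variance-stabilized values was not used.

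The tests used edgeR 4.0.16 under R 4.3.3. TMM normalization, filterByExpr with a min.count of 10 (14537 genes left) and a quasi-likelihood fit of 16 group means to all 64 libraries (48 residual degrees of freedom) gave log2 fold changes, SE and Benjamini-Hochberg adjusted p, with a threshold of 0.01. P-values measure the spread between libraries within the 16 groups, since the sources do not say that each library is 1 mouse. Genes named are Ahr, the 12 with the largest fold change in each direction whose groups do not overlap, the 5 of lowest p in each direction, called genes within 10 Mb of Ahr, up to 4 called genes per list, every tested gene of the AhR, sex and sub-strain lists and called genes of the contrasts between settings. Cell cycle genes beyond these were named after their values were seen, as were Ifi213, S100a8, S100a9, Il1b, Tnf and Il6. The comparison, lists and rules were chosen with earlier results of these data known. Same-numbered KO and WT libraries did not deviate together (r of 0.05, -0.33, -0.06 and 0.08), so the numbers do not pair the genotypes.

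Alternatives were DESeq2 1.42.0, other size factors, filters, thresholds and sample sets, a replicate block, the series of library identifiers and leaving out libraries. Scripts were tested on simulated data. Gene positions are from GENCODE M21 on GRCm38. Some items are not reported here.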

Additional observations from a re-analysis of the deposited data

Results flagged for a closer look

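Library measures and named genes were checked in each genotype for a library far from the other 3, by the gap to the nearest library over the range of the group. Of 173 groups of 4 checked, 19 were past the limit, where chance gives about 1 in 20. WT replicate 2 had 30760778 counts on genes against 15678717 to 16985370 in the others. KO replicate 4 had 5.63% low-quality alignments against 1.31% to 1.98%.

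WT replicate 3 was low for Mrc1 (36.4 CPM against 66.0 to 72.4), Ccnb2 (14.5 CPM against 23.6 to 25.4), Cenpf (12.8 CPM against 24.3 to 27.3), Hsp90aa1 (165 CPM against 201 to 208), Ide (61.4 CPM against 67.0 to 68.1), AC148020.1 (0.641 CPM against 0.925 to 0.996) and Arnt2 (0.0493 CPM against 0.125 to 0.146). KO replicate 2 was low for Tiparp (10.0 CPM against 18.4 to 19.0), Cul4b (13.5 CPM against 28.2 to 32.5) and Ccl4 (8.65 CPM against 9.79 to 9.99). KO replicate 1 was low for H2-Q7 (8.46 CPM against 18.8 to 20.0) and H2-Q4 (49.4 CPM against 84.2 to 89.6). WT replicate 1 was low for Plau (172 CPM against 235 to 245), C130026I21Rik (0.974 CPM against 1.23 to 1.28) and Il1r2 (0.292 CPM against 0.427 to 0.444). WT replicate 2 was low for 4933430I17Rik (0.477 CPM against 0.876 to 0.937), and KO replicate 4 was high for Aqp9 (3.25 CPM against 2.186 to 2.28).

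The KO against WT log2 fold change differed between hk S.E. and rest at 3 h for Enc1, by -1.01, and for Rcsd1, by 0.83, in the test of the difference itself. Every other named gene had an adjusted p above 0.01 in this test and in that between 20 h and 3 h at rest.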

How the results depend on the processing

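For rest at 3 h 176 genes were called, 35 higher and 141 lower in KO. Size factors of DESeq2 gave 174 calls, no filter 142 and a min.count of 50 gave 176. DESeq2 gave 268 calls on all libraries (62 higher, 206 lower) and 255 on the groups compared, and edgeR on the groups compared gave 31 (2 higher, 29 lower), 28 of them among the 176. A threshold of 0.05 gave 318 (68 higher, 250 lower). With the identifier series as a covariate, 104 were called (22 higher, 82 lower), with 17 (9 higher, 8 lower) within the larger and 3 (0 higher, 3 lower) within the smaller series. Leaving out libraries, chosen after seeing the data, gave 29 (8 higher, 21 lower) without both replicate 4 libraries and 100 (25 higher, 75 lower) without WT replicate 3 and KO replicate 2. Without 1 library, 56 to 199 genes were called, 18 to 46 of them higher and 36 to 161 lower. The count was lowest without WT replicate 1 (90), 2 (87) or 4 (70) and without KO replicate 2 (56) or 3 (80). The share of lower genes was 80.1% at first, 93.5% with edgeR on the groups compared, 47.1% within the larger series and 64.3% to 81.7% without 1 library.

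Genes whose contrast differed between hk S.E. and rest numbered 2, and 17 with DESeq2 on all libraries or the groups compared, 5 at a threshold of 0.05, 0 with edgeR on the groups compared, 1 with the identifier covariate, without both replicate 4 libraries or without WT replicate 3 and KO replicate 2, and 1 to 9 without 1 library. For the difference between 20 h and 3 h the number was 0 in every alternative run. A difference of 2 contrasts has a larger SE than a single contrast, so 0 calls do not show that the contrasts are equal.

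The replicate number as a block, with edgeR on the groups compared, left 2 calls (0 higher, 2 lower). For the difference between hk S.E. and rest the block was the replicate number within each genotype, and 0 were called. The genotypes are different animals, so a call lost with this block is not read as a weaker effect. Over the 85 named genes, 1389 of 1756 pairs of a gene and an alternative kept call and direction, 362 lost the call, 4 gained it and 1 changed direction, Ccl5 within the smaller series at -0.41. Causes of these changes were not tested. Sparse genes such as Apol7c, Ccr7 and Il1r2 are limited by counts, and all p-values by 4 libraries per genotype.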
